A study of Mus musculus with 12 samples.

Results

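The genes described here are 10 early response regulators of mouse paw joints: the mRNA-decay proteins Zfp36, Zfp36l1 and Zfp36l2, the transcription factors Egr1, Egr2 and Egr3, the early response genes Ier2 and Ier3, the MAP kinase phosphatase Dusp1 and the nuclear receptor Nr4a1. All 10 were found by symbol among the 52636 gene identifiers of the count table. The set was chosen by the measured levels of Zfp36 and Egr1, which stayed high in anti-SIRPa-treated arthritic joints, so the levels of Zfp36 and Egr1, and the fold changes of every member in treated against naive joints, are given as a description and without a p-value. The mice fell into 3 groups of 4. Arthritic mice had received K/BxN serum, whose antibodies inflame the joints of a recipient, and were given either 6F2, an agonistic antibody to the inhibitory myeloid receptor SIRPa (KBxN + 6F2), or anti-gp120, a control antibody (KBxN + aGP120). Naive mice were given anti-gp120 (naive + aGP120). Tissue came from whole paws, in the arthritic mice at day 7 after serum transfer, and each library was made from the joint RNA of 1 mouse. Serum transfer models the effector phase of arthritis and leaves out the priming of the disease. For strain, age and sex of the mice, nothing is stated in the sources used here.

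Early response genes are transcribed within minutes of a stimulus, without new protein synthesis, and their mRNAs are mostly short-lived. Zfp36, also known as tristetraprolin, binds AU-rich elements in the 3′ untranslated regions of cytokine mRNAs and recruits the CCR4-NOT deadenylase that removes their poly(A) tails; mice without it develop inflammatory arthritis. Egr1 is induced by ERK signalling through serum response factor, which binds CArG boxes, and Egr2 and Egr3 are its zinc-finger relatives. Dusp1 removes the activating phosphates from p38 and JNK and is induced by stress and by glucocorticoids. Nr4a1 is an orphan nuclear receptor of activated macrophages and lymphocytes.

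The letters TATTTAT, the DNA form of the core that Zfp36 proteins bind, were counted on the transcribed strand in the annotated 3′ untranslated regions of 9 members; Egr1 was not looked at. Of the 9, 5 held a match, against 27.6% of 21037 untranslated regions of all genes. Longer regions hold more matches, so each member was also set beside regions of a length within 10% of its own. Zfp36 held 3 matches in 774 bases (19.3% of 1196 regions of like length held any), Zfp36l1 3 in 1835 bases (39.3% of 1459) and Zfp36l2 3 in 1822 bases (38.6% of 1475). Ier3 held 4 in 613 bases (16.5% of 1102) and Dusp1 3 in 690 bases (19.3% of 1104). Egr2, Egr3, Ier2 and Nr4a1 held none in 1200, 2645, 755 and 543 bases, where 31.0%, 49.5%, 19.98% and 14.3% of regions of like length held a match. A match is a string of letters and not a measured binding site. For each of the 5 genes a stretch is shown here on its own strand from the GENCODE M21 transcripts on GRCm38, with TATTTAT in capitals, because the Zfp36 mRNA is itself a known target of its protein. The positions are chr7:28376951-28376979 for Zfp36, chr12:80108167-80108195 for Zfp36l1, chr17:84184914-84184942 for Zfp36l2, chr17:35822481-35822509 for Ier3 and chr17:26506159-26506187 for Dusp1.
Zfp36: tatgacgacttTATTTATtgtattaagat
Zfp36l1: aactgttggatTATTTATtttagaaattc
Zfp36l2: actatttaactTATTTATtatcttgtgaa
Ier3: tgtctaattaaTATTTATgTATTTATgta
Dusp1: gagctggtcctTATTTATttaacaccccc

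Promoter sequences from RefSeq (build GRCm38.p6) were matched by symbol for 6 members, and the 250 bases before each start were searched on both strands for 8 motifs. Zfp36 held a CArG box 58 to 49 bases before its start, and 4 of the 5 annotated starts of Egr2 had one before them. The Egr2 windows that begin at chr10:67537619, 67537620 and 67537680 overlap and hold the same box, CCATATATGG. Of 32851 promoters, 1.47% held a CArG box. Dusp1 held the cAMP response element TGACGTCA (1.55% of promoters), and its core TGACG, which overlaps the full element, was found before Dusp1, Egr2 and Nr4a1 (17.8% of promoters). Ier3 held an NF-kB consensus (3.90% of promoters), Zfp36l1 held TATAAA (12.4%) and Zfp36 held TTCNNNGAA (7.02%). The Egr site GCGTGGGCG (0.536%) and the AP-1 site TGACTCA (4.46%) were in none of the 10 windows of these members, which says only that these letters are not there. Shown on their own strands are the stretches of the 3 genes that tested higher in a comparison reported further on, Zfp36l1 (chr12:80113014-80113263), Ier3 (chr17:35821463-35821683) and Dusp1 (chr17:26508520-26508722), and the 30 bases around the CArG box of Zfp36 (chr7:28379267-28379296), with the motifs in capitals. The Zfp36 stretch also falls in the 5′ untranslated region of a longer annotated transcript.
Zfp36: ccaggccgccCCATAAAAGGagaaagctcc
Zfp36l1: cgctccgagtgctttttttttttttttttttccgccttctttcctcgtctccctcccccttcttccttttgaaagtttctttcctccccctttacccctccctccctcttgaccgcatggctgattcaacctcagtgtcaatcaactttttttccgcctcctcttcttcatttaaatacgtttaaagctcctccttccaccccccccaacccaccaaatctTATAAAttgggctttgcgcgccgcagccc
Ier3: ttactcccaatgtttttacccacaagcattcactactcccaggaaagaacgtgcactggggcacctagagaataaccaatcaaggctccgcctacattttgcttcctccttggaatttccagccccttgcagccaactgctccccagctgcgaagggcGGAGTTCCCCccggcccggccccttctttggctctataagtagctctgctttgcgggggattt
Dusp1: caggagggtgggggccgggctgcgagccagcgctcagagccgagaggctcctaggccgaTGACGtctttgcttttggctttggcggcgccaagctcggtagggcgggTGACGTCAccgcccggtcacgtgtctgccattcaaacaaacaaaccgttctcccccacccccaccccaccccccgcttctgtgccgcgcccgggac

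All 10 are protein-coding genes on GRCm38 in the GENCODE M21 annotation. Zfp36 (ENSMUSG00000044786) lies at chr7:28376784-28380253 on the minus strand, Zfp36l1 (ENSMUSG00000021127) at chr12:80107754-80113013 on the minus strand and Zfp36l2 (ENSMUSG00000045817) at chr17:84183931-84187947 on the minus strand. Egr1 (ENSMUSG00000038418) lies at chr18:34859823-34864984 on the plus strand, Egr2 (ENSMUSG00000037868) at chr10:67535475-67542188 on the plus strand and Egr3 (ENSMUSG00000033730) at chr14:70077203-70082614 on the plus strand. Ier2 (ENSMUSG00000053560) lies at chr8:84661331-84662852 on the minus strand and Ier3 (ENSMUSG00000003541) at chr17:35821684-35822923 on the plus strand. Dusp1 (ENSMUSG00000024190) lies at chr17:26505590-26562128 on the minus strand and Nr4a1 (ENSMUSG00000023034) at chr15:101254269-101274795 on the plus strand. The strand setting of the counting is unknown, and exons shared with genes of the opposite strand limit the counts of 4 members. Zfp36 shared 125 exon bases with Gm44710 (144 counts over all libraries), Zfp36l1 shared 1672 bases with Gm26669 (15 counts), Dusp1 shared 11 bases with Ergic1 (7056 counts), and Zfp36l2 shared 105 bases with AC132455.1, for which no count was used here.

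Total counts ran from 13791454 to 17597920 in KBxN + 6F2 joints, from 6893969 to 13416033 in KBxN + aGP120 joints and from 14289363 to 16205593 in naive joints. Markers of cartilage were present in every library (summed level of 7 genes from 453 to 953 CPM). The joint label holds mixed tissue: 8 skeletal muscle genes took 12.1% to 24.3% of the counts, and the summed level of 8 epidermal genes varied from 9.14 to 17110 CPM in KBxN + 6F2 joints, from 555 to 4576 CPM in KBxN + aGP120 joints and from 12.6 to 13576 CPM in naive joints. Libraries that stood apart were KBxN + 6F2 mouse 2 and naive mouse 4, both nearly without epidermal transcripts, KBxN + aGP120 mice 2 and 4, whose 1974 smell and taste receptor genes summed to 539 and 233 CPM against 41.1 CPM or less in the other libraries, and KBxN + aGP120 mouse 1, whose neutrophil markers (21.9 CPM) and macrophage markers (522 CPM) did not exceed the naive range. Levels are TMM-scaled CPM with SD over 4 mice, fold changes are log2 values with SE, and adjusted p-values come from edgeR's quasi-likelihood test with Benjamini-Hochberg adjustment over 16674 genes. In bulk tissue, fewer cells of a type and less RNA per cell cannot be told apart.

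Per kilobase of exon, the members of naive joints spanned a wide range of levels. Zfp36l2 was the most abundant at 28.3 ± 1.68 CPM per kilobase, and its 4 naive libraries lay above all those of the next gene. Nr4a1 (17.1 ± 5.36), Dusp1 (15.6 ± 2.77), Zfp36l1 (15.3 ± 2.07), Ier2 (12.1 ± 2.74) and Egr1 (9.03 ± 1.58 CPM per kilobase) followed, and each of these overlapped the next in the order. On these lengths, a gap without overlap separated Egr1 from the lowest members. The length merges the exons of all annotated transcripts. For Zfp36 it is 3470 bases in 1 block that covers the whole gene, so its level per kilobase and the gap depend on that length. Ier3 (4.07 ± 1.48), Zfp36 (3.97 ± 1.00), Egr3 (3.38 ± 1.65) and Egr2 (2.31 ± 0.79 CPM per kilobase) overlapped their neighbours. Zfp36, the best known member of its family in inflammation, had the least abundant mRNA of the 3 decay genes in the naive paw.

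Zfp36 was higher in both arthritic groups than in naive joints. Its levels in mice 1 to 4 were 22.3, 34.5, 29.5 and 34.9 CPM in KBxN + 6F2 joints, 33.7, 36.6, 36.6 and 29.8 CPM in KBxN + aGP120 joints and 14.1, 12.8, 18.3 and 9.96 CPM in naive joints. All 8 arthritic libraries lay above all 4 naive ones, and the 2 arthritic groups overlapped, with KBxN + 6F2 mouse 1 the lowest of the arthritic mice. The means were 30.3 ± 5.90, 34.2 ± 3.23 and 13.8 ± 3.46 CPM. The log2 fold changes were 1.14 ± 0.19 in KBxN + 6F2 against naive joints, 1.31 ± 0.19 in KBxN + aGP120 against naive joints and -0.17 ± 0.18 in KBxN + 6F2 against KBxN + aGP120 joints. The 2 comparisons with naive joints share their controls.

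Zfp36l1 passed the test in arthritis and Zfp36l2 did not. Zfp36l1, a paralog that acts on the same AU-rich elements, had 54.5, 65.2, 57.1 and 76.7 CPM in KBxN + 6F2 joints, 52.2, 91.3, 80.3 and 64.6 CPM in KBxN + aGP120 joints and 49.4, 47.7, 49.0 and 36.4 CPM in naive joints. All arthritic libraries lay above all naive ones, and the 2 arthritic groups overlapped. Zfp36l1 rose by 0.66 ± 0.17 in KBxN + aGP120 against naive joints (adjusted p = 0.0318) and differed by -0.18 ± 0.17 in KBxN + 6F2 against KBxN + aGP120 joints (adjusted p = 0.542). Leaving out any 1 of 12 libraries, the first call held in 5 fits, those without KBxN + aGP120 mouse 1 and without each KBxN + 6F2 mouse, and was lost without any naive mouse or KBxN + aGP120 mouse 2, 3 or 4, with adjusted p from 0.00184 to 0.0996 and a log2 fold change from 0.53 to 0.77. Zfp36l2, the third paralog, had 98.1, 100.3, 92.6 and 128 CPM in KBxN + 6F2 joints, 105, 115, 125 and 94.4 CPM in KBxN + aGP120 joints and 106, 103, 98.5 and 92.5 CPM in naive joints. The groups overlapped throughout. Its log2 fold changes were 0.13 ± 0.12 in KBxN + aGP120 against naive joints (adjusted p = 0.511) and -0.07 ± 0.12 in KBxN + 6F2 against KBxN + aGP120 joints (adjusted p = 0.779), the smallest SE of the 10 members.

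**Figure D1:**
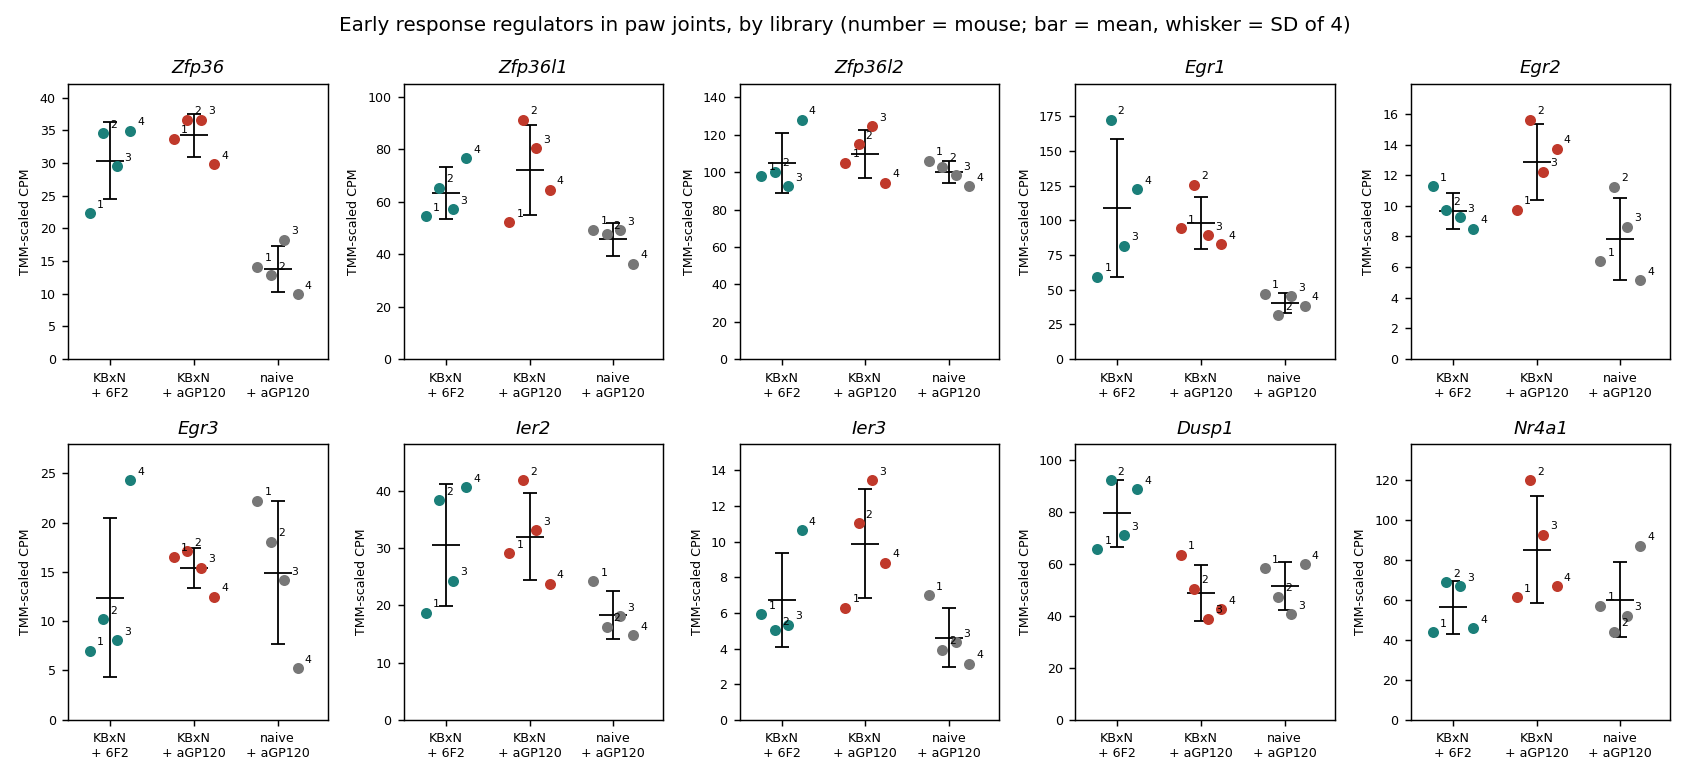
Level of each of the 10 genes in the 12 libraries (y axis, TMM-scaled CPM, starting at 0), with KBxN + 6F2, KBxN + aGP120 and naive + aGP120 joints from left to right; points are mice with their number, the bar is the mean and the whisker the SD of 4. Zfp36, Zfp36l1 and Egr1 lie above every naive library in all 8 arthritic mice, and Dusp1 lies above both other groups in KBxN + 6F2 joints.

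Egr1, the founding member of its family, had the largest SD in CPM of the 10 members among treated mice, although relative to the mean the SD of Egr3 was larger (65.0% against 45.6% for Egr1). In mice 1 to 4 it had 59.3, 173, 81.7 and 122 CPM in KBxN + 6F2 joints, 94.4, 125, 89.2 and 82.6 CPM in KBxN + aGP120 joints and 47.0, 31.5, 45.2 and 38.3 CPM in naive joints. Every arthritic library exceeded every naive one, while KBxN + 6F2 mice held both the highest and the lowest of the arthritic values. The means were 109 ± 49.7, 97.9 ± 19.0 and 40.5 ± 7.09 CPM. Log2 fold changes were 1.43 ± 0.28 in KBxN + 6F2 against naive joints, 1.27 ± 0.28 in KBxN + aGP120 against naive joints and 0.16 ± 0.28 in KBxN + 6F2 against KBxN + aGP120 joints. Without KBxN + 6F2 mouse 2, the library almost free of epidermal transcripts (9.14 CPM) and the highest for Egr1, the last value became -0.15.

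Neither Egr2 nor Egr3 passed edgeR's test in arthritis; DESeq2 called Egr2. Egr2, known from myelination and macrophage differentiation, had 11.3, 9.72, 9.24 and 8.49 CPM in KBxN + 6F2 joints, 9.76, 15.6, 12.2 and 13.7 CPM in KBxN + aGP120 joints and 6.39, 11.2, 8.65 and 5.14 CPM in naive joints. The groups overlapped in all 3 comparisons, and the log2 fold change of 0.71 ± 0.23 in KBxN + aGP120 against naive joints missed the threshold of 0.05 (adjusted p = 0.0660), though it passed without KBxN + aGP120 mouse 1 (adjusted p = 0.0185), without naive mouse 2 (adjusted p = 0.0438) and in DESeq2 (adjusted p = 0.0329). The difference was -0.40 ± 0.23 in KBxN + 6F2 against KBxN + aGP120 joints (adjusted p = 0.293). Egr3, known from lymphocytes and muscle spindles, had 6.99, 10.2, 8.09 and 24.3 CPM in KBxN + 6F2 joints, 16.5, 17.1, 15.4 and 12.5 CPM in KBxN + aGP120 joints and 22.2, 18.1, 14.1 and 5.21 CPM in naive joints. The treated and the naive group each spanned the whole control-antibody group. Its log2 fold changes were 0.04 ± 0.44 in KBxN + aGP120 against naive joints (adjusted p = 0.965) and -0.31 ± 0.44 in KBxN + 6F2 against KBxN + aGP120 joints (adjusted p = 0.714). Egr3 was set beside the skin content of the libraries. KBxN + 6F2 mouse 4, the highest for Egr3, had 17110 CPM of epidermal transcripts against 9.14 to 374 CPM in the other KBxN + 6F2 mice, and the naive mice kept the same order for both, from 13576 CPM in mouse 1 through 4681 and 3611 CPM to 12.6 CPM in mouse 4. The orders differed elsewhere: KBxN + 6F2 mouse 1, the lowest for Egr3 in its group, had 318 CPM of epidermal transcripts against 9.14 CPM in mouse 2, and KBxN + aGP120 mice 1 to 4 had 4576, 1773, 555 and 1090 CPM, with the highest Egr3 in mouse 2 and the lowest in mouse 4. The part of skin content in the Egr3 values was not tested.

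Both Ier genes had higher means in arthritic than in naive joints. Ier2, a transcriptional regulator of the early growth response, had 18.7, 38.4, 24.3 and 40.7 CPM in KBxN + 6F2 joints, 29.2, 41.9, 33.2 and 23.8 CPM in KBxN + aGP120 joints and 24.3, 16.3, 18.1 and 14.8 CPM in naive joints. Naive mouse 1 overlapped the arthritic values, and the log2 fold change of 0.80 ± 0.25 in KBxN + aGP120 against naive joints did not pass (adjusted p = 0.0622; 0.0460 without KBxN + 6F2 mouse 1, and 0.0278 in DESeq2). It differed by -0.06 ± 0.25 in KBxN + 6F2 against KBxN + aGP120 joints (adjusted p = 0.901). Ier3, a stress-inducible survival factor, had 5.93, 5.02, 5.34 and 10.6 CPM in KBxN + 6F2 joints, 6.29, 11.03, 13.4 and 8.81 CPM in KBxN + aGP120 joints and 7.00, 3.93, 4.36 and 3.14 CPM in naive joints. It was the member with the fewest reads, 41 to 188 counts per library, and its groups overlapped. Ier3 rose by 1.096 ± 0.32 in KBxN + aGP120 against naive joints (adjusted p = 0.0450) and differed by -0.55 ± 0.31 in KBxN + 6F2 against KBxN + aGP120 joints (adjusted p = 0.295). The first call held in 3 of 12 fits with 1 library left out, those without naive mouse 1, KBxN + aGP120 mouse 1 or KBxN + 6F2 mouse 4, with adjusted p from 0.00806 to 0.140 and a log2 fold change from 0.90 to 1.36.

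Between the arthritic groups, Dusp1 was the 1 member called. In mice 1 to 4 it had 65.7, 92.1, 71.0 and 88.7 CPM in KBxN + 6F2 joints, 63.4, 50.4, 38.8 and 42.5 CPM in KBxN + aGP120 joints and 58.2, 47.3, 40.6 and 59.9 CPM in naive joints. All 4 KBxN + 6F2 libraries exceeded the other 8, by a narrow margin over KBxN + aGP120 mouse 1, while KBxN + aGP120 and naive joints overlapped. Dusp1 rose by 0.70 ± 0.18 in KBxN + 6F2 against KBxN + aGP120 joints (adjusted p = 0.0472), and its log2 fold change was -0.08 ± 0.18 in KBxN + aGP120 against naive joints (adjusted p = 0.805). Against naive joints, KBxN + 6F2 joints differed by 0.62 ± 0.18. Among 12 fits with 1 library left out, the call held in 2, those without KBxN + aGP120 mouse 1 and without naive mouse 4, with adjusted p from 0.00191 to 0.140 and a log2 fold change from 0.61 to 0.87. The direction was the same in all 23 alternatives.

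Nr4a1 passed neither test. It had 43.7, 68.8, 67.0 and 45.9 CPM in KBxN + 6F2 joints, 61.4, 119.9, 92.6 and 66.8 CPM in KBxN + aGP120 joints and 57.2, 44.2, 52.0 and 87.2 CPM in naive joints. The groups overlapped. Its log2 fold change was 0.50 ± 0.26 in KBxN + aGP120 against naive joints (adjusted p = 0.218) and -0.60 ± 0.26 in KBxN + 6F2 against KBxN + aGP120 joints (adjusted p = 0.176).

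**Figure D2:**
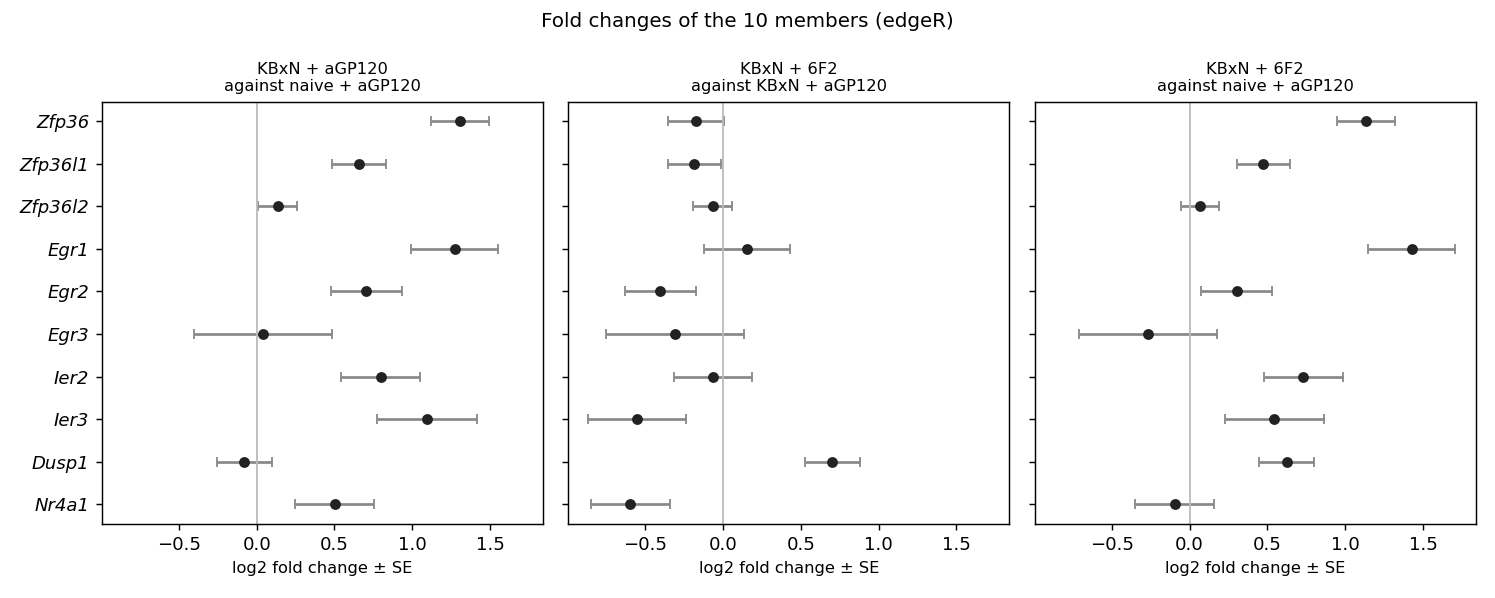
Log2 fold change (x axis) of each gene (y axis) in the 3 comparisons, from edgeR over all 12 libraries; points are estimates, whiskers the SE and the vertical line is 0. Zfp36 and Egr1 sit above 1 in both comparisons with naive joints, and Dusp1, at 0.70, is the farthest above 0 in KBxN + 6F2 against KBxN + aGP120 joints.

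Leaving out Zfp36 and Egr1, by which the set was chosen, 2 of the other 8 members (25.0%), Zfp36l1 and Ier3, were called higher and 0 lower in KBxN + aGP120 against naive joints, where 10.3% of all tested genes were called in either direction (5.87% higher, 4.45% lower). Groups did not overlap for 1 of the 8 (12.5%), Zfp36l1, the same share as among all genes (12.5%, with 6.02% higher and 6.47% lower). The median log2 fold change of the 8 was 0.58, against 0.03 for all tested genes. DESeq2 called 4 of the 8, with Egr2 and Ier2 in addition, and limma-voom called 0. Dusp1 alone of the 8 was called in KBxN + 6F2 against KBxN + aGP120 joints, against 3.29% of all genes (1.59% higher, 1.7% lower), and it was also the 1 member without overlap, against 10% of all genes (5.18% higher, 4.82% lower). Here 7 of the 8 had a log2 fold change below 0, and their median was -0.25 against -0.03 for all genes. With fewer libraries most of these calls were lost, also where the library left out did not stand apart: without KBxN + aGP120 mouse 3, edgeR called 412 genes and 0 of the 8 in KBxN + aGP120 against naive joints. Without KBxN + aGP120 mice 2 and 4, the libraries with receptor reads, edgeR called 1 gene in KBxN + aGP120 against naive joints and 0 in KBxN + 6F2 against KBxN + aGP120 joints, so that no call of a member or a list gene held in the second comparison. The fold changes moved little: Zfp36 stood at 1.33, Egr1 at 1.16, Zfp36l1 at 0.51 (adjusted p = 0.234) and Ier3 at 1.07 (adjusted p = 0.236) against naive joints, and Dusp1 at 0.66 (adjusted p = 0.298) between the arthritic groups. Without the 2 libraries low in epidermal transcripts, the same values were 1.17, 1.23, 0.55 (adjusted p = 0.131), 0.94 (adjusted p = 0.145) and 0.66 (adjusted p = 0.137), with 166 and 0 genes called in these comparisons. KBxN + 6F2 against naive joints is the contrast behind the choice of the set: edgeR's quasi-likelihood test called 0% of all genes there, with 675 of 16674 genes at an unadjusted p under 0.05, while DESeq2 called 20 genes, and the 4 members without overlap (Zfp36, Zfp36l1, Egr1 and Dusp1, against 4.89% of all genes, 3.04% higher and 1.85% lower) are stated with nothing read from them.

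**Figure D3:**
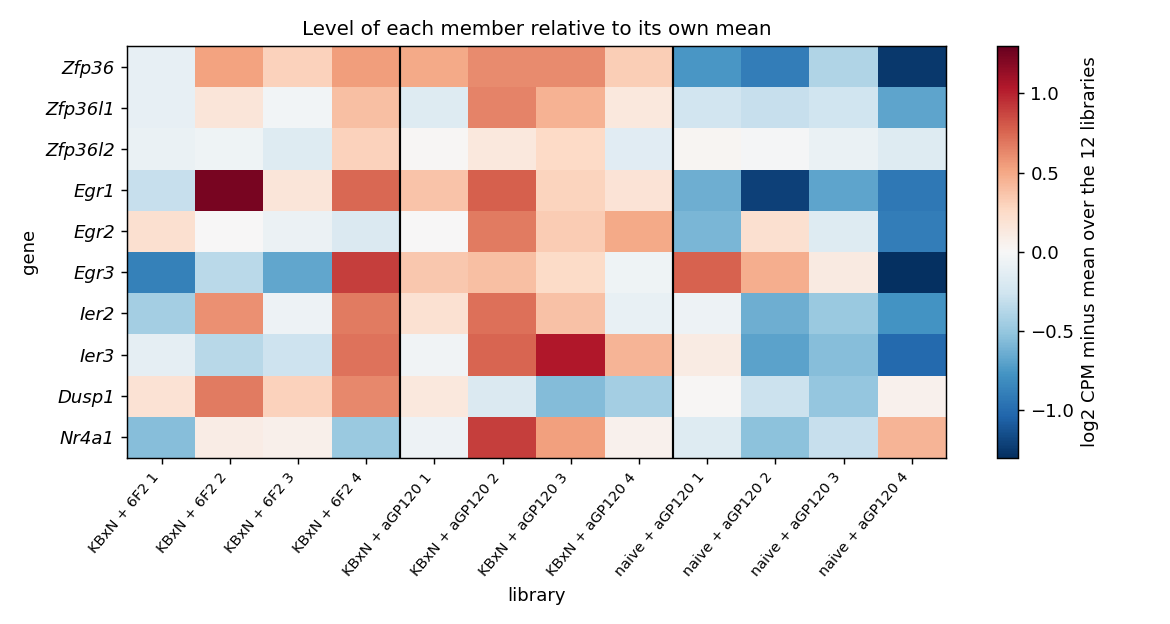
Log2 CPM of each gene (rows) in each library (columns) minus the mean of that gene over the 12 libraries, from blue (below the mean) to red (above); black lines separate KBxN + 6F2, KBxN + aGP120 and naive + aGP120 joints. KBxN + 6F2 mouse 1 is the lowest of its group for 7 of 10 genes and KBxN + aGP120 mouse 2 the highest of its group for 7.

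Within a group, a few mice held most of the extremes. KBxN + 6F2 mouse 1 was the lowest of its group for 7 members (Zfp36, Zfp36l1, Egr1, Egr3, Ier2, Dusp1 and Nr4a1), while mouse 4 was the highest for 6 and mouse 2 for Egr1, Dusp1 and Nr4a1. Among KBxN + aGP120 mice, mouse 2 was the highest for 7 members, including Zfp36, and mouse 1 was the lowest for Zfp36l1, Egr2, Ier3 and Nr4a1 but the highest for Dusp1. The library of KBxN + aGP120 mouse 2 also had the fewest counts of the 12 (6893969) and the highest sum of smell and taste receptor genes (539 CPM). Naive mouse 4 was the lowest for 7 members and the highest for Dusp1 and Nr4a1. The genes whose centred log2 levels differed least from those of Zfp36, members left aside, over the 12 libraries, by root mean square difference, were Junb (0.32), Penk (0.35), Enho (0.35), Ift80 (0.36) and Ccn1 (0.36), among 12063 genes. For Egr1 they were Btg2 (0.33), Junb (0.41), Ifit3b (0.45), Enho (0.46) and B3galt4 (0.47). Among the members, Zfp36 and Egr1 differed from each other by 0.30, less than from any of these genes, and from Ier2 by 0.34 and 0.33, whereas Egr3 was the member farthest from Egr1, at 0.88. Zfp36 and Egr1 were picked together because both stayed high in treated joints, so their closeness to each other follows in part from that choice. Points also share library depth and tissue content, so all of this likeness is a description.

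Cell markers were called mostly in KBxN + aGP120 against naive joints. The transcript Gm26917, to which reads of ribosomal RNA are known to map, was also called between the arthritic groups. In KBxN + aGP120 against naive joints, 9 of 12 tested macrophage genes and 4 of 9 fibroblast genes were called higher, against 5.87% of all genes. Of 6 tested neutrophil genes, 2 passed the filter on low counts only with the KBxN + aGP120 libraries. Of the other 4, 1 was called higher. In KBxN + 6F2 against KBxN + aGP120 joints, 0 of the 12 macrophage genes and 0 of those 4 neutrophil genes were called. There 1 of the 9 fibroblast genes was called lower, against 1.7% of all genes. The summed macrophage level (13 genes) ran from 651 to 825 CPM in KBxN + 6F2 joints, from 522 to 1099 CPM in KBxN + aGP120 joints and from 527 to 565 CPM in naive joints. The neutrophil sum (9 genes) ran from 20.3 to 65.0 CPM, from 21.9 to 389 CPM and from 15.0 to 31.8 CPM in the same groups, and the fibroblast sum (9 genes) from 14739 to 19216 CPM, from 12867 to 47374 CPM and from 12348 to 19704 CPM. No marker was at 0 in all libraries. KBxN + aGP120 mouse 1 had the lowest of all 3 sums in its group, within or below the naive range. Gm26917 ran from 17340 to 22139 CPM in KBxN + 6F2 joints, from 30545 to 74981 CPM in KBxN + aGP120 joints and from 18161 to 25262 CPM in naive joints, so that all 4 KBxN + aGP120 libraries lay above the other 8. It took 2.89% to 8.28% of their counts. Gm26917 was called higher in KBxN + aGP120 against naive joints (1.38) and lower in KBxN + 6F2 against KBxN + aGP120 joints (-1.51), and KBxN + aGP120 mouse 1 had the lowest level of its group here too. The part of cell content and of Gm26917 in the values of the members and of the lists that follow was not tested.

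Close relatives of the members split by gene. Of 10 relatives, 9 were tested; Egr4 had 3 counts in all. In KBxN + aGP120 against naive joints 2 rose and 2 fell, against 10.3% of all genes called, with a median log2 fold change of 0.50. Nr4a2, a nuclear receptor paralog of Nr4a1, had 5.29, 7.34, 8.16 and 7.47 CPM in KBxN + 6F2 joints, 8.68, 25.4, 20.02 and 14.7 CPM in KBxN + aGP120 joints and 6.70, 5.97, 7.45 and 6.13 CPM in naive joints. It rose by 1.38 ± 0.27 in KBxN + aGP120 against naive joints (adjusted p = 0.0113) and fell by 1.28 ± 0.27 in KBxN + 6F2 against KBxN + aGP120 joints (adjusted p = 0.0314). Ier5, of the Ier2 family, rose by 0.94 ± 0.19 (adjusted p = 0.0131) and fell by 0.78 ± 0.19 (adjusted p = 0.0437) in the same comparisons. Dusp10, a phosphatase of p38 and JNK like Dusp1, had 70.1, 69.7, 43.0 and 44.6 CPM in KBxN + 6F2 joints, 35.6, 15.6, 11.6 and 17.6 CPM in KBxN + aGP120 joints and 69.5, 58.7, 64.8 and 76.2 CPM in naive joints. KBxN + aGP120 joints lay below both other groups without overlap. Dusp10 fell by 1.74 ± 0.31 in KBxN + aGP120 against naive joints (adjusted p = 0.0101) and rose by 1.498 ± 0.30 in KBxN + 6F2 against KBxN + aGP120 joints (adjusted p = 0.0327). Dusp6, which acts on ERK, fell by 0.43 ± 0.13 (adjusted p = 0.0476) and rose by 0.51 ± 0.13 (adjusted p = 0.0466). These 2 comparisons share the KBxN + aGP120 libraries, so a shift of that group alone moves both, in opposite directions. The same holds for the lists that follow. Whether Zfp36 or Egr1 responded to 6F2 differently from these relatives was not tested.

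**Figure D4:**
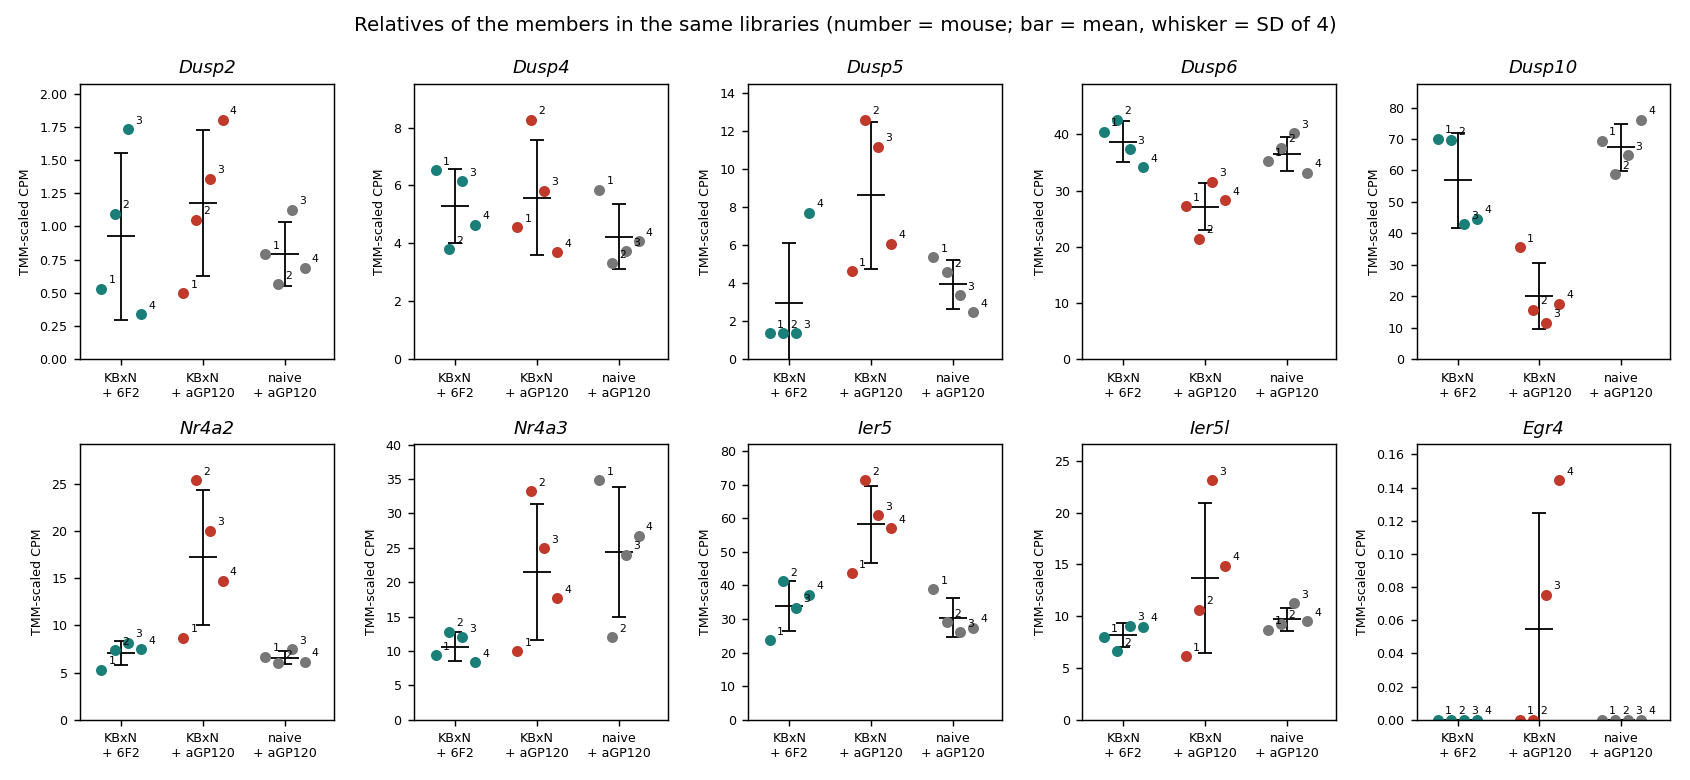
Level of 10 relatives of the members in the 12 libraries (y axis, TMM-scaled CPM, starting at 0), with KBxN + 6F2, KBxN + aGP120 and naive + aGP120 joints from left to right; points are mice with their number, the bar is the mean and the whisker the SD of 4. Dusp10 and Dusp6 are low and Nr4a2 and Ier5 high in KBxN + aGP120 joints, while KBxN + 6F2 joints lie near naive joints for these 4 genes; Egr4 is at or near 0 throughout.

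Of 19 other immediate early genes tested, 18 passed the filter whichever group was left out. Of these 18, 8 rose and 0 fell in KBxN + aGP120 against naive joints (median 0.54), where 10.3% of all genes were called. The smallest p belonged to the matricellular gene Ccn1 (1.57 ± 0.22, adjusted p = 0.00535), the AP-1 subunit Junb (1.35 ± 0.24, adjusted p = 0.00917) and the early transcription factor Csrnp1 (1.29 ± 0.23, adjusted p = 0.00964). Against KBxN + aGP120 joints, 3 of the 18 fell and 0 rose in KBxN + 6F2 joints, where 1.59% of all genes were called higher and 1.7% lower. The median of the 18 was -0.29, against -0.03 for all genes. Myc stood at -1.52 ± 0.28 (adjusted p = 0.0265), Csrnp1 at -1.20 ± 0.23 (adjusted p = 0.0265) and Fosl2, an AP-1 subunit, at -1.40 ± 0.27 (adjusted p = 0.0292). Fosl1, the gene left aside, averaged 0.48 ± 0.12 CPM in KBxN + 6F2, 3.78 ± 2.302 CPM in KBxN + aGP120 and 1.00 ± 0.32 CPM in naive joints. Myc, a growth regulator, averaged 17.6 ± 5.08 CPM in KBxN + 6F2, 50.5 ± 16.9 CPM in KBxN + aGP120 and 18.1 ± 5.19 CPM in naive joints. Junb averaged 64.9 ± 21.3, 99.8 ± 19.6 and 39.0 ± 7.89 CPM in these groups. In the same order, Fos averaged 96.1 ± 63.4, 68.4 ± 21.2 and 15.5 ± 4.90 CPM and Btg2 35.6 ± 14.5, 48.1 ± 11.2 and 20.3 ± 5.35 CPM. A mean above that of naive joints in KBxN + 6F2 joints was therefore not particular to Zfp36 and Egr1. Of the 19 genes, 10 had a log2 fold change above 0 in KBxN + 6F2 against naive joints.

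Upstream and downstream of the members, the lists differed. For comparison, 5.87% of all tested genes were called higher and 4.45% lower in KBxN + aGP120 against naive joints (median 0.03). In KBxN + 6F2 against KBxN + aGP120 joints, 1.59% of all tested genes were called higher and 1.7% lower (median -0.03). Of 8 Egr corepressors and serum response regulators, among them Nab1, Nab2 and Srf, edgeR called 0 in either comparison of arthritic joints. Of 9 feedback inhibitors of receptor and ERK signalling, 2 rose in KBxN + aGP120 against naive joints (median 0.28), Errfi1 by 0.87 ± 0.16 (adjusted p = 0.0103) and Spred3 by 1.18 ± 0.33 (adjusted p = 0.0378), and 0 were called in KBxN + 6F2 against KBxN + aGP120 joints. Of 10 ERK, p38 and MK2 pathway kinases, 3 fell and 0 rose in KBxN + aGP120 against naive joints (median -0.16): Map2k3, which activates p38, by 1.05 ± 0.18 (adjusted p = 0.00832), Mapkapk2, the MK2 kinase that phosphorylates Zfp36, by 0.78 ± 0.17 (adjusted p = 0.0169), and Mapk8, which encodes JNK1, by 0.81 ± 0.23 (adjusted p = 0.0419). Map2k3 rose by 0.74 ± 0.18 in KBxN + 6F2 against KBxN + aGP120 joints (adjusted p = 0.0435). The summed level of 8 skeletal muscle genes ran from 107767 to 218665 CPM in KBxN + 6F2, from 109926 to 213684 CPM in KBxN + aGP120 and from 163477 to 290532 CPM in naive joints, and its part in the kinase values was not tested.

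Of 14 mRNAs that Zfp36 is known to destabilise, 8 passed the filter on low counts. Cxcl1 and Cxcl2, both neutrophil chemokines, passed it only with the KBxN + aGP120 libraries, where they were highest, and are given without a test. Cxcl1 averaged 1.18 ± 0.74 CPM in KBxN + 6F2, 8.78 ± 6.09 CPM in KBxN + aGP120 and 0.27 ± 0.14 CPM in naive joints. Cxcl2 averaged 0.18 ± 0.17, 1.47 ± 0.87 and 0.073 ± 0.063 CPM in the same groups. Of the other 6, 2 rose and 0 fell in KBxN + aGP120 against naive joints, where 5.87% of all genes were called higher and 4.45% lower. The monocyte chemokine Ccl2 rose by 3.10 ± 0.48 (adjusted p = 0.00620) and Ptgs2, the inducible cyclooxygenase, by 3.06 ± 0.67 (adjusted p = 0.0178). Vegfa, the angiogenic growth factor, averaged 72.0 ± 5.65, 60.6 ± 13.7 and 75.7 ± 7.71 CPM in KBxN + 6F2, KBxN + aGP120 and naive joints and was not called. In KBxN + 6F2 against KBxN + aGP120 joints, 1 of the 6 was called lower and 0 higher, where 1.7% of all genes were called lower and 1.59% higher. This was Ccl2, which fell by 1.77 ± 0.45 (adjusted p = 0.0489). The mRNA of Zfp36 itself differed by -0.17 ± 0.18 there, and the part of Zfp36 in the level of Ccl2 was not tested. Of 12 CCR4-NOT subunits and partners, Cnot11 fell by 0.48 ± 0.14 in KBxN + aGP120 against naive joints (adjusted p = 0.0431), and none was called by edgeR in KBxN + 6F2 against KBxN + aGP120 joints.

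Dusp1 is also known as a glucocorticoid-responsive gene. Of 8 other genes of that class, 5 rose and 0 fell in KBxN + aGP120 against naive joints, where 5.87% of all genes were called higher and 4.45% lower. Their median was 0.72, against 0.03 for all genes. Sgk1 stood at 1.46 ± 0.17 (adjusted p = 0.00258), Ddit4 at 1.71 ± 0.20 (adjusted p = 0.00258) and Cebpd at 1.37 ± 0.21 (adjusted p = 0.00535). Zbtb16 (-0.50 ± 0.24) and Klf9 (-0.17 ± 0.20) lay below 0 and were not called, nor was Fkbp5 (0.69 ± 0.22, adjusted p = 0.0630). Between the arthritic groups, 3 fell and 0 rose in KBxN + 6F2 joints, where 1.59% of all genes were called higher and 1.7% lower. The median of the 8 was -0.47, against -0.03 for all genes. Ddit4 fell by 1.16 ± 0.20 (adjusted p = 0.0193), Sgk1 by 0.83 ± 0.17 (adjusted p = 0.0289) and Cebpd by 0.95 ± 0.20 (adjusted p = 0.0335). Zbtb16 (0.36 ± 0.24) and Klf9 (0.08 ± 0.20) lay above 0 and were not called. Dusp1 rose in that comparison, by 0.70 ± 0.18. The part of glucocorticoids in the values of Dusp1 and of this list was not tested.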

How the data were processed

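Total RNA of 12 paw joints was made into stranded libraries, per the labels' protocols, and sequenced. The deposited files hold raw read counts per gene, not normalized by the authors; the genome build is GRCm38 per the submitters' processing notes. Aligner, counting program and strand setting: not given in the sources used here. All 12 sample files equalled the series table, and 52403 of 52636 identifiers had a symbol in GENCODE M21.

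The counts were fitted with edgeR 4.0.16 (R 4.3.3; limma 3.58.1): filterByExpr by group (16674 genes kept), TMM, a robust quasi-likelihood fit over all 12 libraries with 1 coefficient per group, and Benjamini-Hochberg adjustment with a threshold of 0.05. The biological coefficient of variation was 0.334. The script was tested on simulated data. DESeq2 1.42.0, limma-voom, other scalings and filters, a replicate block and left-out libraries were tried. The totals per library limit precision; 3 counts, the detection floor, correspond to between 0.17 and 0.435 CPM, for counting error only. No pair of libraries of a group agreed within sampling noise.

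Members and lists were chosen with earlier results of these data known. The text names all members; from each list and comparison, up to 3 called genes of smallest p, the rest by count (genes that reached the filter's minimum in 4 libraries only with 1 particular group are given by level, without a test); and for Zfp36 and Egr1 the 5 most alike genes with a mean log2 CPM of at least 1 (prior count 2, numbered gene models left out). A further value of Junb in KBxN + 6F2 joints, the list members named as examples and the relatives plotted by library were added after their values were seen. So were the values of Fos, Btg2, Fkbp5, Zbtb16 and Klf9 and the means of Nr4a3. Groups follow the labels, and in the main fit the replicate numbers only name mice.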

Additional observations from a re-analysis of the deposited data

Results flagged for a closer look

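In 30 groups of 4 libraries (10 genes in 3 groups), Dixon's test at the 95% level found 2 samples far from the others, where chance gives about 1 in 20 groups. Zfp36l1 in naive mouse 4 had 36.4 CPM, against 47.7 to 49.4 CPM in the other naive mice. Ier3 in KBxN + 6F2 mouse 4 had 10.6 CPM, against 5.02 to 5.93 CPM in the other KBxN + 6F2 mice. Naive mouse 4 had 12.6 CPM of summed epidermal transcripts, the lowest of its group, and KBxN + 6F2 mouse 4 had 17110 CPM, the highest of all libraries; their part in these values was not tested. Without naive mouse 4 the log2 fold change of Zfp36l1 in KBxN + aGP120 against naive joints was 0.55, and without KBxN + 6F2 mouse 4 that of Ier3 in KBxN + 6F2 against KBxN + aGP120 joints was -0.82.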

How the results depend on the processing

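For the 8 members not chosen by value, tested in 2 comparisons, 23 alternatives gave 368 values: 307 kept direction and side of the threshold, 43 lost the call, 5 gained it and 13 changed sign. Most of the 307 belonged to results not called in the main fit. All 43 losses fell on the called members: Zfp36l1 lost its call in 12 of 23 alternatives, Ier3 in 15 and Dusp1 in 16. Of 322 values given without a test, 7 changed sign. In KBxN + aGP120 against naive joints the 2 calls among the 8 became 4 with DESeq2, 1 with library totals in place of TMM and 0 with limma-voom, with only the 2 groups compared, with a replicate block and without either library pair; with 1 library left out they were 0 to 3, and 0 without naive mouse 3 or 4 or KBxN + aGP120 mouse 2, 3 or 4. No count of calls with Zfp36 and Egr1 included is given, because their levels chose the set. For all genes (1721) the counts were 2905 with DESeq2, 435 with only 2 groups and 735 with the replicate block. They were 166 without the 2 libraries low in epidermal keratins and 1 without the 2 libraries high in receptor reads. With 1 library left out they ran from 412 to 4694, the highest without KBxN + aGP120 mouse 1. In KBxN + 6F2 against KBxN + aGP120 joints the count among the 8 members (1) was 0 with library totals in place of TMM, limma-voom and only 2 groups. It was also 0 with the replicate block and without either library pair, and 0 to 1 with 1 library left out. All genes (548) gave 1871 with DESeq2, 345 with limma-voom, 0 with only 2 groups, 78 with the replicate block, 0 without either pair, and 0 to 3976 with 1 library left out. In KBxN + 6F2 against naive joints, the contrast behind the choice of members, no count of members is given; the gene count (0) was 4 without a filter and 20 with DESeq2. Deviations of same-numbered mice correlated above 0.1 in 1 of 12 pairs (r from -0.80 to 0.21). Mice of different numbers could be more alike, such as naive mouse 4 and KBxN + 6F2 mouse 2 (r = 0.77), both nearly without epidermal transcripts. These correlations therefore cannot decide whether the numbers mark pairs.

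Signs changed for values near 0. Egr3 in KBxN + aGP120 against naive joints became -0.0166 without a filter and -0.25 without the libraries low in epidermal keratins, and ran from -0.25 to 0.29 with 1 library left out (below 0 without naive mouse 4 or KBxN + aGP120 mouse 1 or 2). Dusp1 there became 0.0510 with library totals and ran from -0.24 to 0.0124 with 1 library left out (above 0 without KBxN + aGP120 mouse 3). In KBxN + 6F2 against KBxN + aGP120 joints Zfp36l2 ran from -0.14 to 0.00517 (above 0 without KBxN + aGP120 mouse 3) and Ier2 from -0.19 to 0.12 (above 0 without KBxN + aGP120 mouse 2 or KBxN + 6F2 mouse 1 or 3), and Ier2 became 0.00500 without a filter and 0.00279 without the libraries high in receptor reads. Among values without a test, those of Egr1 in KBxN + 6F2 against KBxN + aGP120 joints (-0.15 without KBxN + 6F2 mouse 2, -0.12 without the libraries low in epidermal keratins), and of Zfp36l2 (1) and Nr4a1 (4) in KBxN + 6F2 against naive joints changed sign. The cause was not tested. Library totals moved the median of all genes in KBxN + aGP120 against naive joints to 0.16 (0.03 with TMM), with 1283 genes higher and 540 lower against 979 and 742; limma-voom gave 486 and 677. In KBxN + 6F2 against KBxN + aGP120 joints these splits were 337 and 172, and 221 and 124, against 265 and 283. Depth limits Ier3 and Egr2 most, with 41 to 188 and 67 to 192 counts per library.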

Other observations

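The heat shock list, another class of rapidly induced genes, divided by member. Of 8 tested, Hsph1 (0.90 ± 0.15, adjusted p = 0.00734) and Hspd1 (0.69 ± 0.16, adjusted p = 0.0221) rose in KBxN + aGP120 against naive joints in edgeR's test, while Hspa1a fell by 1.25 ± 0.28 (adjusted p = 0.0177). Of all tested genes, 5.87% were called higher and 4.45% lower there. Hsph1 fell by 0.73 ± 0.15 in KBxN + 6F2 against KBxN + aGP120 joints (adjusted p = 0.0291). The summed heat shock level ran from 182 to 218 CPM in KBxN + 6F2, from 226 to 283 CPM in KBxN + aGP120 and from 195 to 231 CPM in naive joints.

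Dusp5, a phosphatase of ERK that passed neither test with the control-antibody group, had 1.35, 1.35, 1.37 and 7.70 CPM in KBxN + 6F2 mice 1 to 4, against 4.63, 12.6, 11.2 and 6.07 CPM in KBxN + aGP120 mice and 5.36, 4.57, 3.37 and 2.45 CPM in naive mice. It was named after its values were seen. KBxN + 6F2 mouse 4 was the highest of its group and the naive mice kept the order of their epidermal transcripts, whereas KBxN + aGP120 mouse 1, with the most epidermal transcripts of its group (4576 CPM), had the lowest Dusp5, and mouse 3, with the least (555 CPM), had 11.2 CPM. The part of epidermal transcripts was not tested.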
